A study of Mus musculus with 8 samples.

Results

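The genes described here are the UDP-glucuronosyltransferases and sulfotransferases of mouse liver, the enzymes that make bilirubin, steroids, thyroid hormone, bile acids and drugs water-soluble for export. They were chosen by symbol, as protein-coding genes that start with Ugt1a, Ugt2a, Ugt2b, Ugt3a or Sult, and selected on measured level, at least 1 CPM (counts scaled to a common library total) in 2 or more of 8 liver libraries. Of 55401 genes in the table, 42 carry such a symbol and 30 reached that level: 8 Ugt1a, 1 Ugt2a, 7 Ugt2b, 2 Ugt3a, 4 Sult1, 5 Sult2 and 2 Sult3 genes, and Sult5a1. The livers came from NOD scid gamma (NSG) mice, which lack mature lymphocytes, that carried a human colorectal cancer line under the skin. The series compares 4 liver libraries from hosts of Colo201 tumours, described as high in FGF19, and 4 from hosts of HCT116 tumours, described as low in FGF19. FGF19 is a gut hormone that represses bile acid synthesis in hepatocytes. In each line 2 libraries are labelled Male and 2 labelled Female. The 2 libraries of a line that share a label also share a title number, the digit before L or R in their names. Differences between labels are therefore also differences between title numbers, and these cannot be told apart. Under each label a line has a single title number. Differences between hosts within a label, and the interaction, therefore cannot be told apart from differences between title numbers either. Each tumour type is 1 cell line, every host carried a tumour, while the sources used here give neither age nor time since implantation.

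UDP-glucuronosyltransferases sit in the membrane of the endoplasmic reticulum and move glucuronic acid from UDP-glucuronic acid onto a substrate. All Ugt1a enzymes come from a single locus in which each has its own first exon, joined to a common set of downstream exons, whereas each Ugt2b enzyme is a separate gene. Ugt3a enzymes are known to use sugars other than glucuronic acid. Cytosolic sulfotransferases move a sulfate group from PAPS, with Sult1 enzymes known for phenols and thyroid hormone and Sult2a enzymes for steroids and bile acids. Several Sult2a and Sult3a genes are known to be far more abundant in the liver of female than of male mice.

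The labels for sex did not match the sex chromosome genes. Under the label Male, 4 libraries held 239 to 374 CPM of Xist, transcribed from the inactive X chromosome, and none of Ddx3y, a Y-linked gene. Under the label Female, 4 libraries held 0.275 to 0.833 CPM of Xist and 37 to 65.7 CPM of Ddx3y. Groups are therefore called only by their label. Libraries held 61347603 to 65457482 estimated counts, with 19370 to 20272 genes above 0, so depth was close to even.

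The 8 Ugt1a genes lie on chromosome 1, where their joint sequences show how much they share. In the annotation used, 3 exons were identical in all of them, and 50.3 to 60.6% of the exon bases of each lay in exons of the others. Below, the last 24 bases of each first exon are in lower case and the first 24 bases of the second exon, chr1:88215044-88215067 on the plus strand of GRCm38, are in capitals. They are shown because only the lower-case side can tell one Ugt1a transcript from another.
Ugt1a10: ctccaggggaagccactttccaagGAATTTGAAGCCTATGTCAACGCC
Ugt1a9: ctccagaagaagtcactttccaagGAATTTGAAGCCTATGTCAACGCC
Ugt1a7c: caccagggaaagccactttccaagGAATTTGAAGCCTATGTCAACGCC
Ugt1a6b: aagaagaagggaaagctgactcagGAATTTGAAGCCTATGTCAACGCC
Ugt1a6a: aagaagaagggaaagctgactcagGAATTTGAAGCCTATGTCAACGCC
Ugt1a5: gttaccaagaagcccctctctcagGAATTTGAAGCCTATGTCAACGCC
Ugt1a2: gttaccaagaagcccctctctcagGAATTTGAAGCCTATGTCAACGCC
Ugt1a1: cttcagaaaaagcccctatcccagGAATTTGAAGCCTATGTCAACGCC
The lower-case bases were the same in Ugt1a6a and Ugt1a6b, whose coding sequences were 98.4% identical, and the same in Ugt1a5 and Ugt1a2, at 90.1%. Ugt1a10 and Ugt1a9 were 95.3% identical. Counts for single Ugt1a genes are therefore uncertain, since the authors' counting could split shared reads among them.

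Other members also have near copies. Coding sequences were 97% identical between Ugt2b5 and Ugt2b38, 94.7% between Ugt2b5 and Ugt2b37, 94.9% between Sult2a5 and Sult2a1, 93.2% between Ugt3a1 and Ugt3a2 and 90.9% between Sult3a1 and Sult3a2, and reads of these pairs may also have been divided. The Sult1 genes shared 61.4 to 64.0%.

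Promoter windows from RefSeq (GRCm38.p6, 250 bases before to 50 after the start) were matched for 26 of the 30 members. Those of 5 members are shown because the results below turn on them: Ugt2a3, the only member past the edgeR threshold between hosts, Ugt2b5 and Ugt2b35, which were lower in libraries labelled Male, and Sult2a5 and Sult2a6, which were found almost only there. Capitals mark GTTAAT, part of the motif of the hepatocyte factor HNF1, and AGGTCA, the core hexamer of many nuclear receptors, searched on both strands.
Ugt2a3, chr5:87337146-87337445, minus strand: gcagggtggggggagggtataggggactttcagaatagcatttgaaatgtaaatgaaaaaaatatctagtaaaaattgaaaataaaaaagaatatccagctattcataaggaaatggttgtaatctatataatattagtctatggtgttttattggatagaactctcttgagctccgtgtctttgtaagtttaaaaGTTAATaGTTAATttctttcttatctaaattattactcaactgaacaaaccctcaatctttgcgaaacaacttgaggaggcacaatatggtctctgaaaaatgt
Ugt2b5, chr5:87140291-87140590, minus strand: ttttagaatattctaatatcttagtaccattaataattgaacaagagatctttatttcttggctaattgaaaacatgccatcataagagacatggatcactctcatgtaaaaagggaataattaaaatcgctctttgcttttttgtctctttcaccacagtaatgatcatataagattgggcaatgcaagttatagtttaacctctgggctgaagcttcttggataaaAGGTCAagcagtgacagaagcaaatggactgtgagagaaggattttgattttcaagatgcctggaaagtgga
Ugt2b35, chr5:87000610-87000909, plus strand: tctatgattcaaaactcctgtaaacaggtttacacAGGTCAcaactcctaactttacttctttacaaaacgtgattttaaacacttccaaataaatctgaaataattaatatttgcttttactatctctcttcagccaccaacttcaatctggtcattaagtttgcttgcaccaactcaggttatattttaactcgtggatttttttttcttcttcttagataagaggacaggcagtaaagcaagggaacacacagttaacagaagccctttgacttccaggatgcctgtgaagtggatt
Sult2a5, chr7:13623717-13624016, plus strand: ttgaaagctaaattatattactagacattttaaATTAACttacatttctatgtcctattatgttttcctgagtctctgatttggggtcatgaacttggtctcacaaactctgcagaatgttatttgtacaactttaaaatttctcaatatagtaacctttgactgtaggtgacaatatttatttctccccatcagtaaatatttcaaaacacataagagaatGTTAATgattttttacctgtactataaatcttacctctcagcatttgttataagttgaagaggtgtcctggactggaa
Sult2a6, chr7:14254821-14255120, minus strand: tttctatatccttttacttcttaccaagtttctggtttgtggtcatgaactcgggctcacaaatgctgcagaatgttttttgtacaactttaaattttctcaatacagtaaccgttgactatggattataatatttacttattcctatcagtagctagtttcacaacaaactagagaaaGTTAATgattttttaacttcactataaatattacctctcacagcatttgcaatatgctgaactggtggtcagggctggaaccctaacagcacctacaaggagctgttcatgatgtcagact

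GTTAAT was present in 11 of the 28 member windows and in 7.1% of all 32851 windows, and AGGTCA in 9 of 28 and in 16.26%. In the Ugt2b genes AGGTCA was found in Ugt2b35, Ugt2b36, Ugt2b37, Ugt2b38 and Ugt2b5. TTCNNNGAA, the motif read by STAT5, was found in 2 of 28 windows, those of Sult3a1 and Ugt1a6a, against 8.3% of all. GCGTG, the core read by the aryl hydrocarbon receptor, was in 3 of 28 against 32.39%. TGACNNNGC, a form of the NRF2 element, was in 0 of 28 against 12.39%, and the perfect inverted repeat of the FXR type with a spacer of 1 base in 0 of 28 against 0.01%. A match is a description of these letters only. The windows of Sult2a5 and Sult2a6 were 60.2% identical and those of Ugt2b5 and Ugt2b38 84.2%, while those of Ugt2b5 and Ugt2b35 were 57.9% identical.

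Per length, Ugt2b5 had the highest mean over all libraries, 390 ± 174 FPKM (SD, n = 8), followed by Ugt2b36 with 320 ± 97 FPKM. Both are enzymes of steroid and drug glucuronidation. Ugt1a9, Sult1a1, Sult3a1 and Ugt1a1 came next at mean FPKM of 208, 207, 199 and 197, an order that was not tested. The mean of Sult3a1 averages 308 to 487 FPKM in libraries labelled Male and 0.37 to 0.57 FPKM in those labelled Female. In each library labelled Male, Sult3a1 was above Ugt1a9, Sult1a1 and also Ugt2b5, which held 212 to 260 FPKM there. Ugt2b1 stood at 162, Sult2a8 at 125 and Ugt2a3 at 100 FPKM. The lowest members were Sult5a1 with 1.74, Ugt1a10 with 0.760 and Ugt1a7c with 0.564 FPKM. At least 1 CPM was reached in all 8 libraries by 21 members and in the 4 labelled Male by 29.

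The level rule left out 12 family genes. Of these, Sult1e1, the oestrogen sulfotransferase, came nearest, with 1.84 CPM in Colo201 2L and 0.810 CPM in Colo201 2R, followed by Sult2a7, with 1.07 CPM in HCT116 3L and 0.858 CPM in Colo201 4R. Just inside the rule were Ugt1a7c and Ugt1a10, whose second-highest libraries held 3.39 and 3.92 CPM. No member reached the level in only 1 line.

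**Figure D1:**
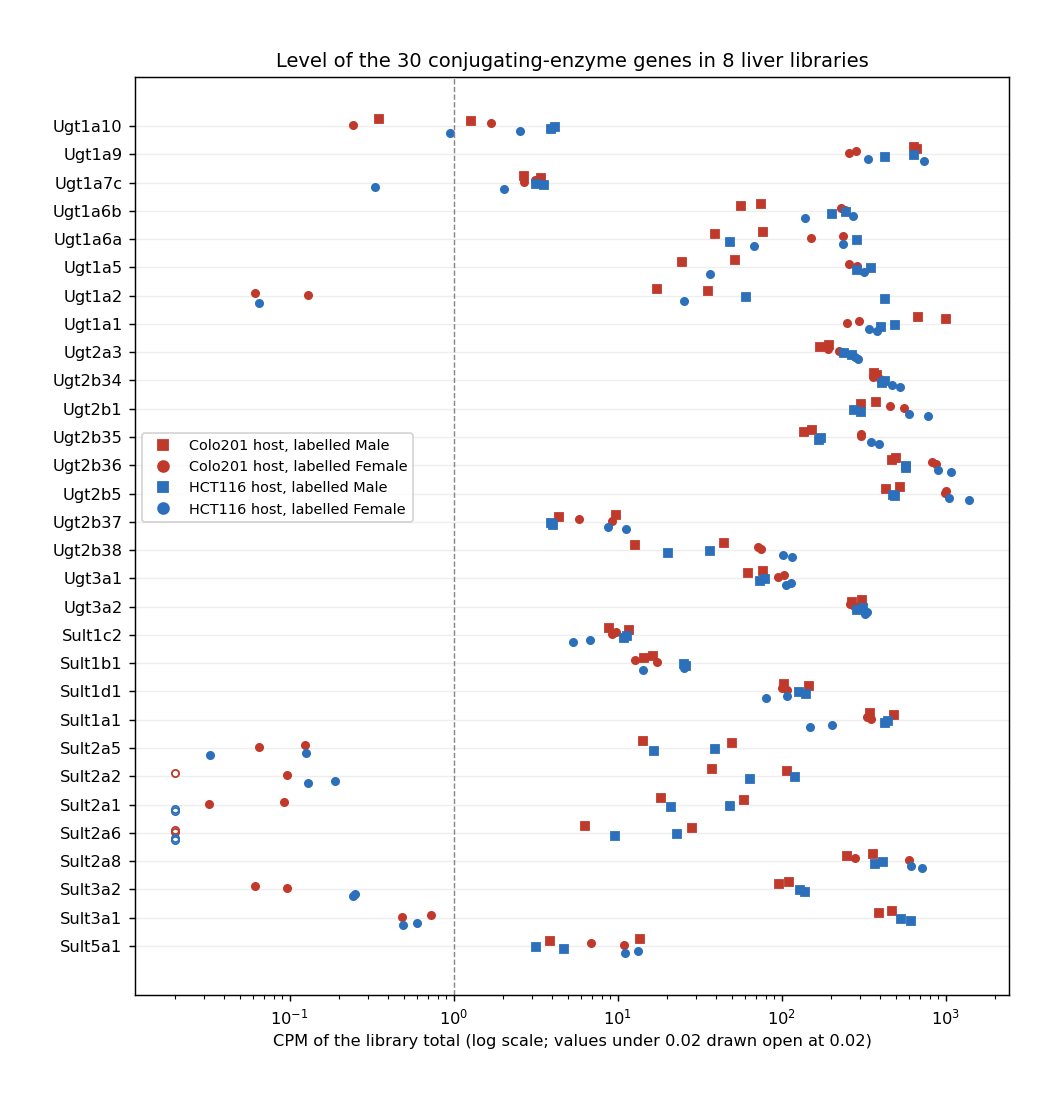
Level of each of the 30 members in 8 liver libraries, in CPM of the library total on a log axis; each point is 1 library, colour gives the host line, shape the sex label, the dashed line marks 1 CPM, and open points are values under 0.02. Sult2a1, Sult2a2, Sult2a5, Sult2a6, Sult3a1 and Sult3a2 lie above 1 CPM only in libraries labelled Male, and Ugt1a2 spreads from 0.0617 to 428 CPM.

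The main comparison asked whether these enzymes differ between livers of Colo201 and HCT116 hosts. Of the 30 members, 1 was lower in Colo201 hosts, Ugt2a3, and 0 were higher by edgeR's quasi-likelihood test at an adjusted p under 0.05, with sex label as a covariate. Over all 17669 genes tested, 2.30% were lower and 2.48% higher, 4.78% in all. At an unadjusted p under 0.05, 7 of the 30 members passed, beside 3834 of all genes (21.7%) in either direction. All 7 were lower in Colo201 hosts (Ugt2a3, Ugt1a2, Sult1b1, Ugt2b34, Sult3a2, Ugt2b35 and Ugt1a10). The share of all genes that passed in that direction was not counted, so the shared direction is a description only. Of the 7, Sult3a2 stayed under 1 CPM in libraries labelled Female. DESeq2 called 3 lower, adding Sult1b1 and Ugt1a2, beside 11.3% of all genes in either direction, and limma voom 1. The median log2 fold change of members was -0.18, beside 0.00 over all genes, 20 of 30 were negative, and 26 lay within 0.6 of 0. P-values measure the spread between these libraries, which nothing in the labels says is between animals. With libraries summed by title number, a fit of 4 sums, 3 of all 17669 genes (0.017%) passed between hosts. In whole liver, fewer cells of a type and less RNA per cell cannot be told apart.

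Ugt2a3 lies at chr5:87324972-87337195 on the minus strand (GENCODE vM21, GRCm38) and glucuronidates bile acids among other substrates. It stood at 194, 171, 192 and 223 CPM in Colo201 2L, 2R, 4L and 4R, against 238, 269, 279 and 291 CPM in HCT116 1L, 1R, 3L and 3R. Every Colo201 library was below every HCT116 library. Mean levels were 195 ± 21 CPM over the Colo201 hosts and 269.5 ± 23 CPM over the HCT116 hosts (SD, n = 4). The log2 fold change was -0.44 (SE 0.10, edgeR adjusted p = 0.0422), or 1.35-fold lower. The difference was -0.43 in libraries labelled Male and -0.44 in those labelled Female. The call was kept without Colo201 2L (adjusted p = 0.0499) and lost without any other single library, where the log2 fold change ran from -0.38 to -0.48 and the adjusted p from 0.0581 to 0.123. It was also lost when libraries were summed by title number (adjusted p = 0.139).

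Hepatocyte markers gave 3 of 10 higher and 0 lower in Colo201 hosts, Apoa1, Trf and Ahsg, and were abundant in every library, with a summed level of 157300 to 191800 CPM in Colo201 and 127500 to 172800 CPM in HCT116 hosts. Most of each sum was Alb, at 87470 to 120200 against 75060 to 112600 CPM. Apob, Cps1, Tat and Fga had negative log2 fold changes that did not pass. A list of 10 genes typical of hepatocytes around the central vein summed to 6787 to 9045 CPM in Colo201 hosts and 10310 to 12690 CPM in HCT116 hosts, with 2 higher and 3 lower, and most of each sum was Cyp2e1, at 5473 to 7376 against 8613 to 10280 CPM. Of 9 genes typical of hepatocytes around the portal tract, 3 were higher and 1 lower in Colo201 hosts, with sums of 7735 to 9899 against 8901 to 12090 CPM. Of the 8 cholangiocyte markers 1 was higher, Prom1 (log2 fold change 2.75). Colo201 4R stood apart for other genes of that list, with 25.9 CPM of Krt19 against 0.481 to 2.23 CPM in the other libraries and 11.98 CPM of Epcam against 0.831 to 1.40 CPM. Of the 8 Kupffer cell and 8 endothelial markers 0 passed by edgeR, with 0 and 1 at an unadjusted p under 0.05. Reln among 8 stellate cell markers and Cela1, the 1 pancreas marker tested, were higher, and of 5 erythroid and 4 neutrophil markers 0 passed by edgeR, with 4 and 0 at an unadjusted p under 0.05. The part of these shifts in the Ugt2a3 difference was not tested.

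The remaining Ugt2 genes lay close together between hosts. All 7 Ugt2b genes are on chromosome 5, and their log2 fold changes ran from -0.25 to 0.24 with 0 past the edgeR threshold. Ugt2b34 stood at 364, 381, 362 and 398 CPM in Colo201 2L, 2R, 4L and 4R, against 428, 407, 473 and 526 CPM in HCT116 1L, 1R, 3L and 3R. These groups did not overlap either, although its log2 fold change of -0.25 (SE 0.09) had an edgeR adjusted p of 0.154. In all, 2 of 30 members had Colo201 libraries entirely below HCT116 libraries, beside 6.40% of all genes, and 0 had them entirely above, beside 5.55%.

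Ugt2b5 and Ugt2b36, the members with the highest mean FPKM, gave log2 fold changes between hosts of -0.12 (SE 0.14, edgeR adjusted p = 0.668) and -0.20 (SE 0.09, edgeR adjusted p = 0.2502). The direction for Ugt2b5 rested on HCT116 3R, its highest library at 1388 CPM, without which the value was 0.02. The 2 Ugt3a genes, on chromosome 15, gave -0.11 for Ugt3a1 and -0.14 for Ugt3a2, both with an SE of 0.10. Ugt3a2 was among the steadiest members, at 309, 266, 260 and 276 CPM in Colo201 2L, 2R, 4L and 4R, against 314, 286, 331 and 320 CPM in HCT116 1L, 1R, 3L and 3R, with overlap between the hosts.

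**Figure D2:**
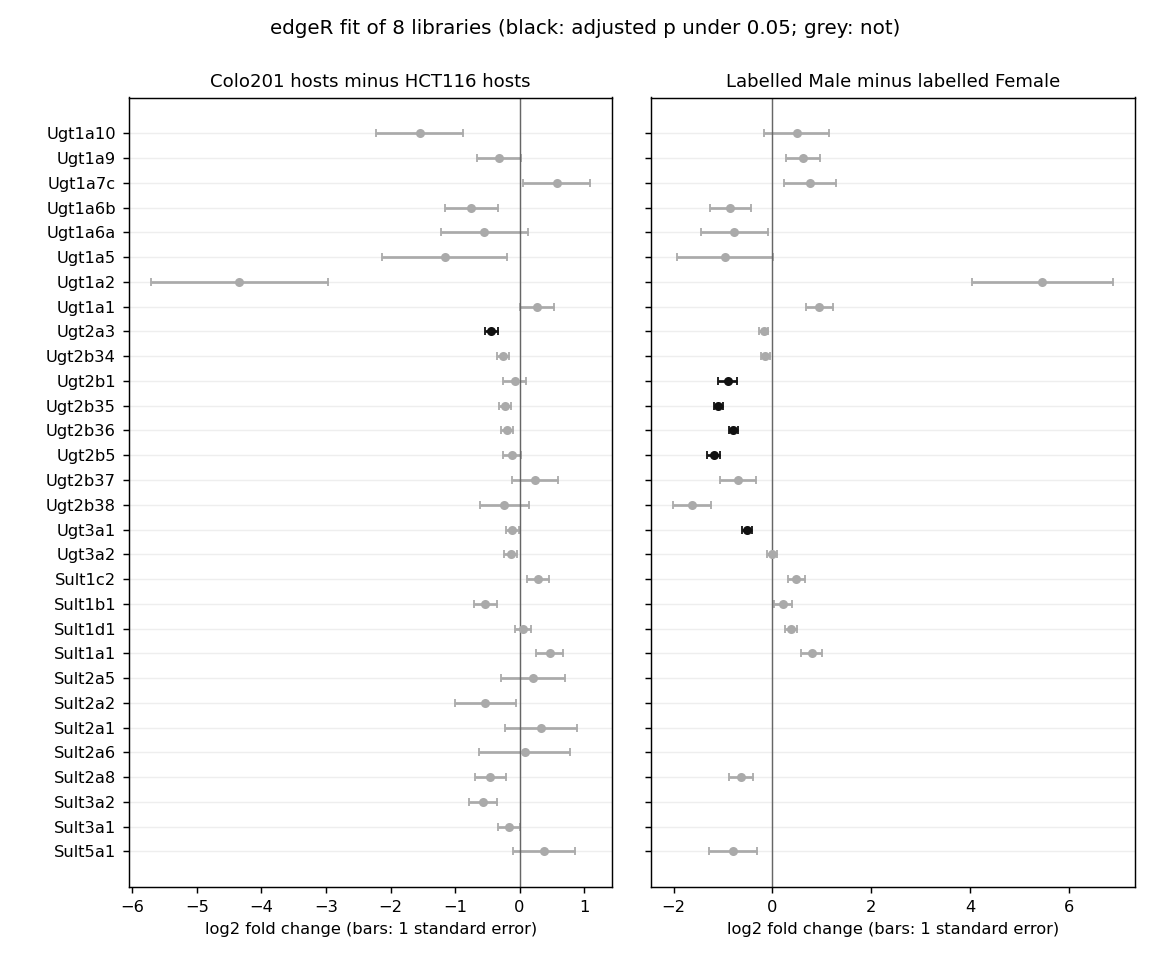
Log2 fold change of each member, with 1 standard error, from the edgeR fit of 8 libraries; left, Colo201 minus HCT116 hosts, right, libraries labelled Male minus labelled Female, with black for an adjusted p under 0.05. In the left panel Ugt2a3 is the only black point, at -0.44; in the right panel, where the 6 Sult genes that entered only through libraries labelled Male are not drawn, 5 Ugt genes are black at -0.51 to -1.19.

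The Ugt1a genes spread most widely, and 0 of 8 passed between hosts by edgeR. At an unadjusted p under 0.05, 2 passed, Ugt1a2 and Ugt1a10, beside 21.7% of all genes, and DESeq2 called 1, Ugt1a2. Ugt1a1, the bilirubin-conjugating enzyme, stood at 674, 1000.3, 295 and 251.4 CPM in Colo201 2L, 2R, 4L and 4R, against 490, 405, 341 and 383 CPM in HCT116 1L, 1R, 3L and 3R. The Colo201 libraries held both its highest and its lowest values, and the log2 fold change was 0.27 (SE 0.26, edgeR adjusted p = 0.605). Ugt1a9, an enzyme of phenol and drug glucuronidation, stood at 642, 670.1, 286 and 256 CPM in the Colo201 libraries and at 640.2, 424, 335 and 741 CPM in the HCT116 libraries, in the same order. Its log2 fold change was -0.32 (SE 0.34, edgeR adjusted p = 0.637), and 0.10 without HCT116 3R. Ugt1a2 stood at 17.3, 35.8, 0.0617 and 0.130 CPM in Colo201 2L, 2R, 4L and 4R, against 60.2, 428, 25.3 and 0.0652 CPM in HCT116 1L, 1R, 3L and 3R. With an SE of 1.37, its log2 fold change of -4.34 had an edgeR adjusted p of 0.112.

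Summed over the 8 genes, the locus was steadier than its parts. The sum was 1540, 1831, 1308 and 1191 CPM in Colo201 2L, 2R, 4L and 4R, against 2083, 1803, 1532 and 1370 CPM in HCT116 1L, 1R, 3L and 3R, with a coefficient of variation of 19.1% and a highest value 1.75 times the lowest. For single genes the coefficient of variation ran from 39.0% for Ugt1a9 to 206% for Ugt1a2. A sum is in general steadier than its parts, also where these vary independently, so this is a description only. With the sum put in place of the 8 genes, the log2 fold change between hosts was -0.18 (SE 0.08, edgeR adjusted p = 0.231), and that between labels, Male minus Female, was 0.42 (SE 0.08, edgeR adjusted p = 0.0247). Within the sum, Ugt1a5 took 15.9 to 23.99% in 5 libraries and 1.34 to 3.38% in Colo201 2L, Colo201 2R and HCT116 3R. Ugt1a9 took 54.1% in HCT116 3R against 21.8% in HCT116 3L, libraries of the same line and label. Ugt1a2 took 23.7% in HCT116 1R and 2.89% in HCT116 1L. Whether these shifts are in transcripts or in how shared reads were divided was not tested.

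**Figure D3:**
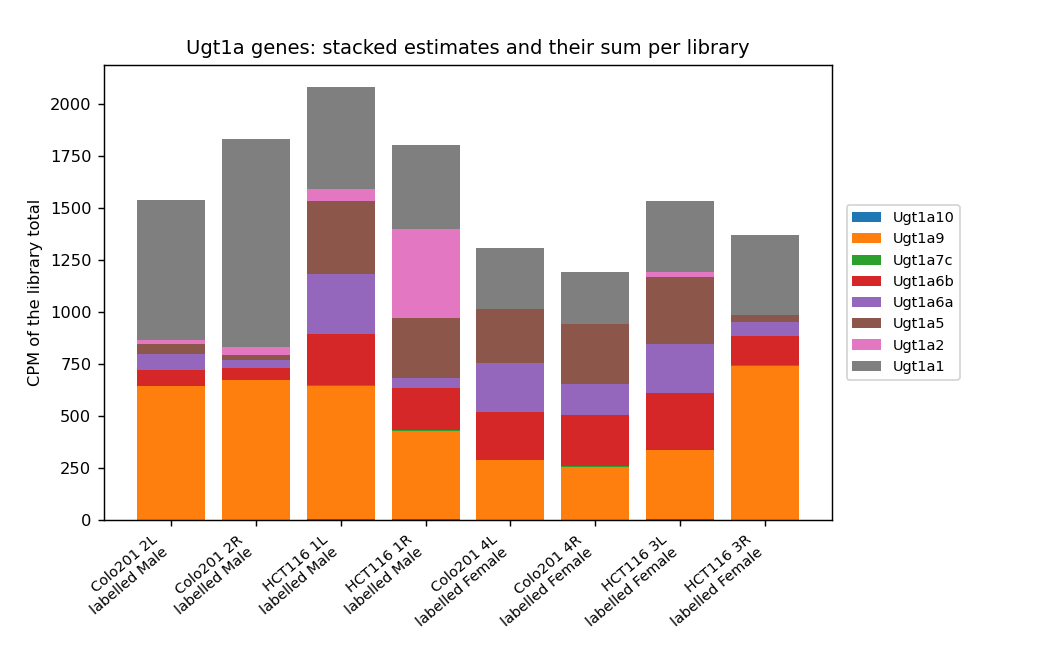
Stacked CPM of the 8 Ugt1a genes in each library, by host line and sex label; the height of a bar is their sum. Sums run from 1191 to 2083 CPM, while the orange (Ugt1a9), brown (Ugt1a5) and pink (Ugt1a2) portions change between libraries of the same line and label.

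Of the 12 sulfotransferases, 0 passed between hosts by edgeR. At an unadjusted p under 0.05, 2 passed, Sult1b1 and Sult3a2, beside 21.7% of all genes, and DESeq2 called 1, Sult1b1. For Sult3a2 the log2 fold change was -0.32 (SE 0.15) in libraries labelled Male. It was -1.61 (SE 0.31) in those labelled Female, which held only 0.0617 to 0.252 CPM. Sult1a1, the main phenol sulfotransferase, stood at 343, 484, 330.3 and 350.0 CPM in Colo201 2L, 2R, 4L and 4R, against 445, 429, 201 and 148 CPM in HCT116 1L, 1R, 3L and 3R. The low values were those of HCT116 hosts labelled Female. Its log2 fold change was 0.47 over all libraries (SE 0.21, edgeR adjusted p = 0.240), -0.05 in those labelled Male and 0.98 in those labelled Female (SE 0.17, edgeR adjusted p = 0.0601). The difference between those differences was 1.03 (SE 0.23, edgeR adjusted p = 0.947), so it did not pass over all genes. Sult1d1, known for catecholamines and related phenols, had 104, 146, 100.5 and 108 CPM in Colo201 2L, 2R, 4L and 4R, against 127, 142, 107 and 80.4 CPM in HCT116 1L, 1R, 3L and 3R, with a log2 fold change of 0.05 (SE 0.12). Sult1b1, known for thyroid hormone, gave -0.53 (SE 0.18, edgeR adjusted p = 0.133), and Sult1c2 gave 0.29.

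Sult2a8, a bile acid sulfotransferase of mouse liver, stood at 362, 249.8, 279 and 595 CPM in Colo201 2L, 2R, 4L and 4R, against 413, 371, 618 and 716 CPM in HCT116 1L, 1R, 3L and 3R. Colo201 4R lay within the HCT116 range, and the log2 fold change was -0.45 (SE 0.24, edgeR adjusted p = 0.309). Sult5a1 was low and scattered, at 13.7, 3.87, 6.88 and 10.9 CPM in Colo201 2L, 2R, 4L and 4R, against 3.18, 4.72, 13.4 and 11.1 CPM in HCT116 1L, 1R, 3L and 3R, with a log2 fold change of 0.38 (SE 0.48) that was -0.28 without Colo201 2L.

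For 4 Sult2a genes the 2 libraries of a title number lay far apart. Sult2a1 stood at 18.4 and 58.9 CPM in Colo201 2L and 2R and at 48.7 and 21.2 CPM in HCT116 1L and 1R, the libraries labelled Male. Sult2a2 stood at 37.7, 107.8, 120.9 and 63.8 CPM in the same libraries, Sult2a5 at 14.3, 49.6, 39.2 and 16.7 CPM and Sult2a6 at 6.29, 28.3, 23.0 and 9.70 CPM. In all 4 genes Colo201 2R and HCT116 1L were the higher libraries of their title numbers. Without Colo201 2R the log2 fold change between hosts turned from 0.33 to -0.42 for Sult2a1 and from 0.08 to -1.26 for Sult2a6. Sult3a1 and Sult3a2 did not follow that order, with 471 and 391 CPM of Sult3a1 in Colo201 2L and 2R and 533 and 613 CPM in HCT116 1L and 1R.

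Within a sex label, 0 of 30 members passed between hosts by edgeR in libraries labelled Male, beside 0.232% of all genes, and 0 of 30 in those labelled Female, beside 0.492%, with 6 and 7 members at an unadjusted p under 0.05, beside 13.1% and 14.1%. The interaction, the difference between hosts under the label Female minus that under the label Male, passed for 0 of 30 by edgeR, beside 0.0283% of all genes. At an unadjusted p under 0.05 it passed for 8 members, beside 4.10% of all genes, and DESeq2 called 3 of them, Sult1a1, Ugt1a1 and Ugt1a6b, beside 0.306%. Ugt1a1 gave 0.93 (SE 0.19) under the label Male and -0.39 (SE 0.19) under the label Female, and Ugt1a6b gave -1.73 (SE 0.30) and 0.24 (SE 0.29). Each line has a single title number under a label, so hosts and title numbers cannot be told apart in these comparisons.

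**Figure D4:**
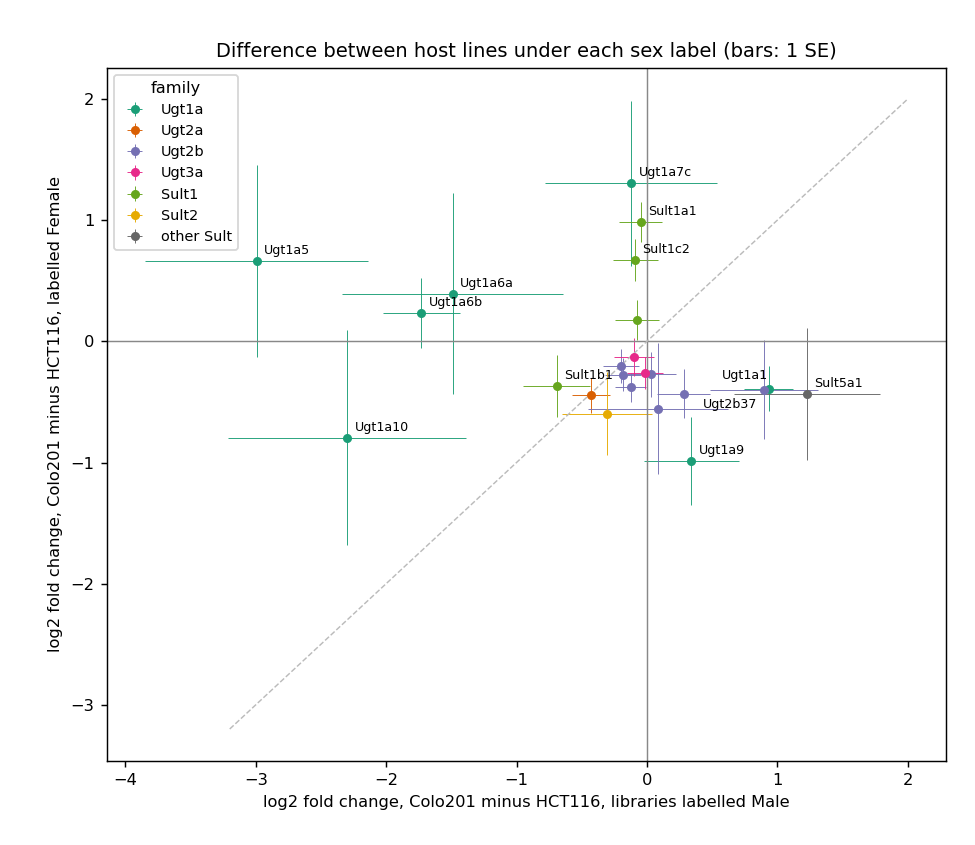
Log2 fold change between hosts (Colo201 minus HCT116) in libraries labelled Male (horizontal) and labelled Female (vertical), with 1 standard error, for 23 members; the 6 Sult2a and Sult3a genes near 0 under the label Female and Ugt1a2 are not drawn, and the dashed line marks equal values. Ugt2a3 lies on the dashed line at -0.43 and -0.44, while Sult1a1 lies at -0.05 and 0.98.

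The 6 genes Sult2a1, Sult2a2, Sult2a5, Sult2a6, Sult3a1 and Sult3a2 reached 1 CPM only in libraries labelled Male. They entered through those libraries and so had to differ between labels. Their values are given as a description. Sult3a1, which acts on amines, held 391 to 613 CPM under the label Male against 0.725, 0.486, 0.598 and 0.489 CPM in Colo201 4L, Colo201 4R, HCT116 3L and HCT116 3R, a ratio of summed fragments of 869 (95% interval 632 to 1250). Sult3a2 held 111.5, 95.9, 128.8 and 138.5 CPM in Colo201 2L, Colo201 2R, HCT116 1L and HCT116 1R against 0.0617, 0.0971, 0.252 and 0.244 CPM, a ratio of 727 (405 to 1550). Sult2a2, at 0, 0.0971, 0.189 and 0.130 CPM under the label Female, gave a ratio of 799 (398 to 2360) and Sult2a5 of 344 (145 to 860). For Sult2a1 the libraries labelled Female held 2 fragments in all, at 0.0926, 0.0324, 0 and 0 CPM, and the ratio was 1160 (322 to 9610). Sult2a6 was at 0 in all 4 of them and was at least 355-fold higher in those labelled Male, against a floor of 3 fragments over the group. A fragment was taken as 4 counts, and intervals and floors cover counting error only. With near-identical copies among them, reads of 1 Sult2a gene may be counted for another.

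Among the other 24 members, 5 were lower and 0 higher in libraries labelled Male by edgeR at an adjusted p under 0.05, beside 2.06% and 1.96% of all genes, 4.02% in all. The 5 were Ugt2b5, Ugt2b35, Ugt2b1, Ugt2b36 and Ugt3a1. DESeq2 also called Sult2a8 and Ugt2b38 lower and Sult1a1, Sult1d1, Ugt1a1 and Ugt1a2 higher, beside 8.97% of all genes in either direction. The 2 libraries of a title number were each other's closest in counts, and with libraries summed by title number only Ugt2b5 and Ugt2b35 of the 5 were called. Entire separation of the labels was seen for Ugt1a1 (higher under the label Male) and for those 5 and Ugt2b38 (lower), beside 4.69% and 4.71% of all genes.

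Ugt2b5, at chr5:87124960-87140318, stood at 528, 433, 479 and 491 CPM in Colo201 2L, Colo201 2R, HCT116 1L and HCT116 1R, labelled Male, and at 1006, 990.1, 1044 and 1388 CPM in Colo201 4L, Colo201 4R, HCT116 3L and HCT116 3R, labelled Female. The lowest library labelled Female thus held more than the highest labelled Male. The log2 fold change, Male minus Female, was -1.19 (SE 0.14, edgeR adjusted p = 0.00264). Ugt2b35, at chr5:87000860-87013275, stood at 154, 138, 173 and 168 CPM against 306, 302, 351 and 393 CPM in the same order. It gave -1.10 (SE 0.09, edgeR adjusted p = 0.000483).

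Ugt2b36, at chr5:87065927-87092555, stood at 499.7, 470.3, 572 and 575 CPM against 819, 873, 896 and 1071 CPM, in the same order, with a log2 fold change of -0.79 (SE 0.09, edgeR adjusted p = 0.00288). Ugt2b1, at chr5:86916638-86926530, stood at 378, 303, 276 and 304 CPM against 454, 557, 601 and 775 CPM, with -0.91 (SE 0.18, edgeR adjusted p = 0.0322). Neither gene's labels overlapped. Ugt3a1, at chr15:9276888-9315032, gave -0.51 (SE 0.10, edgeR adjusted p = 0.0302), with 76.5, 62.4, 79.5 and 74.0 CPM against 102.8, 95.4, 113.9 and 106 CPM in that order. Ugt3a2, its neighbour, gave -0.01 (SE 0.10).

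The count of 5 was 3, Ugt2b5, Ugt2b35 and Ugt2b36, without Colo201 2R, Colo201 4R, HCT116 1L, HCT116 1R, HCT116 3L or HCT116 3R. It was 8 without Colo201 2L, where Ugt2b37, Ugt2b38 and Sult5a1 were added. Without Colo201 4L it stayed at 5, with Sult2a8 in place of Ugt3a1. Ugt2b38 had the most negative value, -1.63, with an edgeR adjusted p of 0.0562 and 12.8 to 44.8 CPM under the label Male against 72.0 to 115.8 CPM under the label Female. Of 8 endothelial markers, 4 (Stab2, Pecam1, Eng and Cdh5) were also higher in libraries labelled Male, where the 8 summed to 278 to 327 CPM against 184 to 241 CPM. Of 8 Kupffer cell markers 1, Cd68, was higher, with a median log2 fold change of 0.72 over the 8 and sums of 352 to 440.1 CPM against 145 to 288 CPM. Of 10 hepatocyte markers 2, Alb and Ahsg, were higher, with sums of 165000 to 191800 CPM against 127500 to 157400 CPM. Most of each sum was Alb, at 107200 to 120200 against 75060 to 94130 CPM. Ttr, Apoa1 and Serpina1a had negative log2 fold changes, the largest -0.34 for Serpina1a (edgeR adjusted p = 0.216). Their part in the differences between labels was not tested.

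**Figure D5:**
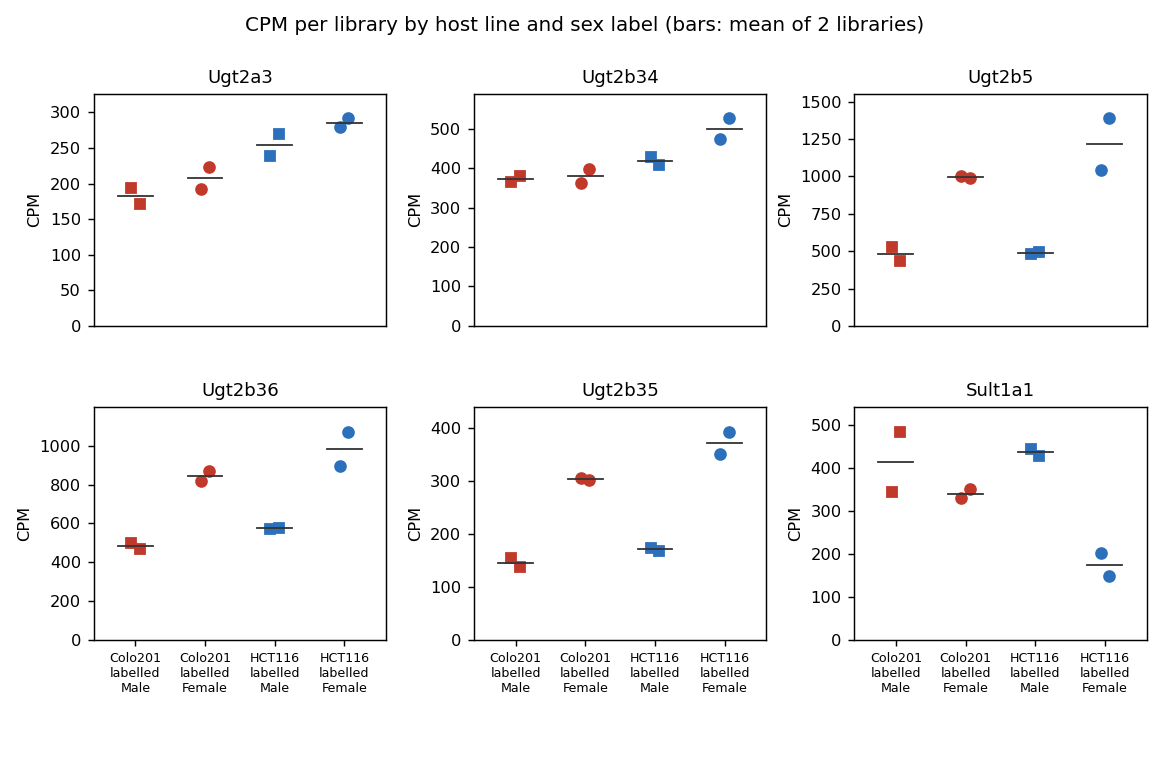
CPM per library for 6 members by host line and sex label, with points for libraries and bars for the mean of 2 libraries. Ugt2a3 is lower in every Colo201 library than in any HCT116 library, Ugt2b5, Ugt2b36 and Ugt2b35 are lower under the label Male, and Sult1a1 is lowest, at 148 and 201 CPM, in HCT116 hosts labelled Female.

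Genes related to these enzymes were read from lists. Adjusted p-values for them treat the 8 libraries as separate. With libraries summed by title number, 0.017% of all genes passed between hosts, and values of the listed genes in that fit are not given here. Of 7 tested genes that supply UDP-glucuronic acid, 0 were higher and 1 lower in Colo201 hosts. That gene was Ugdh, which oxidises UDP-glucose to UDP-glucuronic acid, and it stood at 55.5, 81.5, 163.9 and 161.9 CPM in Colo201 2L, 2R, 4L and 4R, against 94.98, 88, 280.7 and 298.6 CPM in HCT116 1L, 1R, 3L and 3R. Both under the label Male and under the label Female the Colo201 values were below the HCT116 values. The log2 fold change was -0.60 (SE 0.13, edgeR adjusted p = 0.0381) between hosts and -1.46 (SE 0.13, edgeR adjusted p = 0.000569) between labels, Male minus Female. The median of the list between hosts was -0.06.

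Of 11 tested genes for sulfate and PAPS supply, 0 passed between hosts by edgeR in either direction, and the median was 0.06. At an unadjusted p under 0.05, 5 passed, beside 21.7% of all genes. The sulfate carrier Slc26a1 passed in libraries labelled Female, with 130.8 and 124.8 CPM in Colo201 4L and 4R against 73.6 and 69.0 CPM in HCT116 3L and 3R (log2 fold change 0.86, SE 0.11, edgeR adjusted p = 0.0254). Its interaction was 0.90 with an edgeR adjusted p of 0.412. Each line has a single title number under a label, so hosts and title numbers cannot be told apart here. Papss2, which makes PAPS, gave 0.06 (SE 0.15) between hosts and 0.79 (SE 0.15, edgeR adjusted p = 0.0290) between labels. Of 7 listed glucuronidase, sulfatase and sulfatase-activating genes, 1 was higher, the arylsulfatase Arsg, with a log2 fold change of 0.78 (SE 0.16, edgeR adjusted p = 0.0312). Whether Arsg acts on conjugates made by the members was not tested. Gusb, the lysosomal glucuronidase, gave 0.08.

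Of 10 exporters and uptake carriers for conjugates, 3 were lower and 0 higher in Colo201 hosts. Abcg2, which exports sulfates at the canalicular membrane, stood at 23.7, 20.4, 60.8 and 59.4 CPM in Colo201 2L, 2R, 4L and 4R, against 28.4, 41.3, 89.1 and 117.1 CPM in HCT116 1L, 1R, 3L and 3R, with a log2 fold change of -0.69 (SE 0.15, edgeR adjusted p = 0.0435). It was also lower in libraries labelled Male, by -1.51. Abcc2, the canalicular exporter of glucuronides, gave -0.42, and Slco1b2, an uptake carrier, gave -0.50.

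Of 28 regulators known to act on these genes, 6 were lower and 0 higher in Colo201 hosts, and the list's median was -0.01. The oestrogen receptor Esr1 stood at 14.1, 18.9, 8.67 and 7.37 CPM in Colo201 2L, 2R, 4L and 4R, against 45.3, 48.6, 15.3 and 14.9 CPM in HCT116 1L, 1R, 3L and 3R, with a log2 fold change of -1.19 (SE 0.14, edgeR adjusted p = 0.00665). Nr1i3 (-1.28), Nr1i2 (-0.52) and Nr1h4 (-0.46), the receptors CAR, PXR and FXR, were also among the lower genes. Between labels, 4 of the 28 were higher and 2 lower in libraries labelled Male, Trim24 (2.41), Esr1 (1.33), Nr1i3 (1.04) and Nr1i2 (0.51) against Bcl6 (-2.73) and Cebpa (-0.46), in log2 units. Of 9 partner enzymes of bilirubin and steroid metabolism, 0 passed between hosts by edgeR, also with 0 at an unadjusted p under 0.05.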

How the data were processed

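Polyadenylated RNA was sequenced in 8 mouse liver libraries with a stranded kit, per the labels' protocols. The submitters' processing notes name HISAT2, StringTie and GRCm38 (mm10); the sources used here state no version, annotation or strand setting. The deposited table holds estimated counts per gene, already whole numbers, and a second deposited table holds FPKM. Their derivation is not stated. Multiples of 4 made up 43.9 to 45% of the values from 1 to 16 in each library, and a fragment was taken as 4 counts for floors and ratios.

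Of 55401 identifiers, 55141 matched a symbol in GENCODE vM21 (GRCm38), which may not be the authors' annotation. TMM factors scaled the counts, and filterByExpr over the 4 combinations of line and sex label kept 17669 genes. These went through glmQLFit and glmQLFTest of edgeR 4.0.16 (R 4.3.3), two-sided, with Benjamini-Hochberg adjustment over all of them and a threshold of 0.05. An additive fit of line and sex label gave the comparisons of hosts and of labels (5 residual degrees of freedom). Comparisons within a label and the interaction came from a fit with 4 means (4 residual degrees of freedom). The SE of a log2 fold change is its size over the square root of F. CPM are of the raw library total, and FPKM served for levels between genes.

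Samples were grouped by the line and the sex label given to them. Title numbers are not shared between lines, and the sources used here do not say what L and R stand for. No 2 libraries were duplicates (chi-square per gene of at least 53.21). The members and the gene lists were chosen with earlier results of these data known. Named with every library's value were members past the threshold between hosts or in the interaction, the 2 most abundant of each family by FPKM, and the 4 largest changes per direction between labels; others are named where a group needed an example, and Ugt2b34, Ugt2b38, Sult2a5, Ugt1a2, Slc26a1, Krt19, Epcam and the pathway genes named for a label were given values after these were seen. Alternatives were other scaling, DESeq2 1.42.0, limma 3.58.1 (voom, and log2 FPKM plus 1 or 0.1), other filters, thresholds and covariates, summed title numbers, the Ugt1a genes summed, and each library left out. Sequences came from GENCODE transcripts and RefSeq promoters. Some genes of the regulator list are not reported here by name.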

Additional observations from a re-analysis of the deposited data

Results flagged for a closer look

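A library far from the other 3 of its group, by Dixon's ratio at the 95% level, was found in 11 of 119 groups of 4 libraries tested (30 members by line and by label), where chance gives about 1 in 20. Of the 11, 6 were groups of Ugt1a genes. Ugt1a2 held 428 CPM in HCT116 1R, against 0.0652 to 60.2 CPM in the other HCT116 hosts and 17.3 to 60.2 CPM in the others labelled Male, and 25.3 CPM in HCT116 3L, against 0.0617 to 0.130 CPM in the others labelled Female. Ugt1a9 held 424 CPM in HCT116 1R, against 640.2 to 670.1 CPM in the others labelled Male, and 741 CPM in HCT116 3R, against 256 to 335 CPM in the others labelled Female. Ugt1a6a held 289 CPM in HCT116 1L, against 39.3 to 76.4 CPM in the others labelled Male.

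Ugt2b5, the member with the highest mean FPKM, held 1388 CPM in HCT116 3R, against 990.1 to 1044 CPM in the others labelled Female. Colo201 2L was high among libraries labelled Male for Ugt2b37, with 9.77 CPM against 3.93 to 4.42 CPM, and for Sult5a1, with 13.7 CPM against 3.18 to 4.72 CPM. Sult1a1 held 484 CPM in Colo201 2R, against 330.3 to 350.0 CPM in the other Colo201 hosts. Sult1b1 held 14.3 CPM in HCT116 3R, against 25.3 to 26.0 CPM in the other HCT116 hosts. The causes were not tested.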

How the results depend on the processing

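Between hosts, 0 members were higher under every alternative tried. The 1 lower member became 3 under DESeq2 (Sult1b1, Ugt1a2 and Ugt2a3), 2 with limma on log2 FPKM plus 0.1 (Ugt2a3 and Sult3a2), and 0 with no filter, with an adjusted p under 0.01, without the sex label, with the letter as covariate and with libraries summed by title number; leaving out each library gave 0 to 1, where the 1 was Ugt2a3 without Colo201 2L and Sult1b1 without HCT116 3R. In libraries labelled Male, the 6 higher members are those that entered only through these libraries and had to differ, so their number is no test. It was 2 under limma voom and 10 under DESeq2, which added Sult1a1, Sult1d1, Ugt1a1 and Ugt1a2, members that did not enter in that way. Ugt1a2 was also added on log2 FPKM plus 1 and plus 0.1 and without HCT116 3L. Sult1a1 was added without Colo201 2L and Ugt1a9 without HCT116 3R. The 5 lower members became 7 under DESeq2, and 6 under limma voom, with a filter of 1 CPM in 2 libraries and on log2 FPKM plus 1 or 0.1. They became 4 without the line, 3 with an adjusted p under 0.01, 2 with summed title numbers (Ugt2b5 and Ugt2b35), and 3 to 8 when each library was left out. With the letter as covariate they stayed at 5, with Ugt2b38 in place of Ugt2b1. The interaction called 0 members, and 3 under DESeq2. Signs between hosts turned when 1 library was left out for members that were not called: log2 fold changes then ran from -0.421 to 1.095 for Sult2a1, -1.265 to 0.837 for Sult2a6, -0.285 to 0.695 for Sult5a1, -0.586 to 0.10 for Ugt1a9, -0.237 to 0.018 for Ugt2b5, -0.239 to 0.088 for Ugt2b1 and -0.037 to 0.147 for Sult1d1. Sult2a6 also turned to -0.075 with limma voom, -0.071 and -0.085 on log2 FPKM plus 1 and plus 0.1, and -0.113 with the letter as covariate, with adjusted p of 0.935 to 0.961 in these fits by limma and edgeR. The causes were not tested. The interaction was not run without the other factor or with summed title numbers, which leave no term for it or no residual degrees of freedom. No pairing by title number itself was possible because the lines share no title numbers. The sex label used as covariate also splits the title numbers into pairs with 1 from each line.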
